A study of Mus musculus with 6 samples.

Results

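Messenger RNA of 9 genes of simple epithelium was followed across 6 mouse ovarian libraries. The genes are Cdh1, Epcam, Cldn3, Cldn4, Cldn7, Elf3, Esrp1, Grhl2 and Spint1. They were listed by name, with earlier results of these data known. Each of the 9 was found once among the 36727 genes of the deposited table. The libraries were made from polyadenylated RNA of adult female F4 inbred Swiss albino mice, 135 to 140 days old, from ovarian tissue that the labels call estrous-phased. Of these, 3 were of high litter size (replicates 1, 3 and 4) and 3 of low litter size (replicates 1, 2 and 5), litter size being the young per birth. Both groups share strain, sex, age and tissue, and neither had a treatment or an engineered allele in the labels. Whether a sample was 1 animal or a pool is not stated, and p-values therefore reflect variation among these libraries, part or all of which may be technical.

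A simple epithelium is a single layer of polarized cells that lines a duct, a gland or a body surface. Its cells are held together by E-cadherin (Cdh1) at adherens junctions and sealed by claudins at tight junctions. The transcription factors Grhl2 and Elf3 and the splicing regulator Esrp1 maintain the epithelial state, and repressors of the Zeb and Snai families oppose it. In the female tract such epithelium lines the oviduct and uterus, and the ovary itself is covered by a mesothelium-like surface layer.

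Total estimated counts ran from 17620903 to 24758222 per library. The smallest count of any of the 9 genes in a library was 223, with a 95% Poisson interval of 195 to 254 that covers counting error only, and the largest was 11729. CPM here means counts relative to the library total after TMM adjustment, multiplied by 1e6. The libraries stood apart in markers of the labelled tissue. The summed level of 10 granulosa and luteal genes was 50.6, 53.6 and 8900 CPM in high litter size replicates 1, 3 and 4, against 1123, 73.0 and 3176 CPM in low litter size replicates 1, 2 and 5. That of 8 oocyte genes was 2.15, 3.50 and 69.0 CPM in the high litter size libraries, against 15.2, 3.89 and 47.9 CPM in the low litter size libraries. High replicates 1 and 3 and low replicate 2 thus had few of the transcripts that define an ovary. In bulk tissue, fewer cells of a type and less RNA per cell cannot be told apart.

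Per the study's title, the contrast of litter size groups was made to find ovarian genes tied to fitness. For 8 of the 9 genes the mean level was lower with high litter size, while 44.7% of all 16455 tested genes had a negative log2 fold change. For 7 of them all 3 high litter size libraries lay below all 3 low litter size libraries, where 10.8% of the tested genes did so. The exceptions were Cldn3 and Cldn4, whose groups overlapped. The median log2 fold change, high minus low, was -1.58 over the 9 genes and 0.07 over all tested genes. By the quasi-likelihood test of edgeR, adjusted over all tested genes, 0 of the 9 passed a threshold of 0.05, and 0.00608% of all genes did. At an unadjusted p under 0.05 the same test gave 7 of the 9 as lower and 0 as higher, against 7.82% and 6.56% of all genes. DESeq2 called the same number, 7, as lower, where it called 4.08% of all genes as lower, and the likelihood ratio test of edgeR called 7, against 2.88%. Because the 9 genes were listed with earlier results of these data known, the shares over all genes are a description. They give no independent support.

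**Figure D1:**
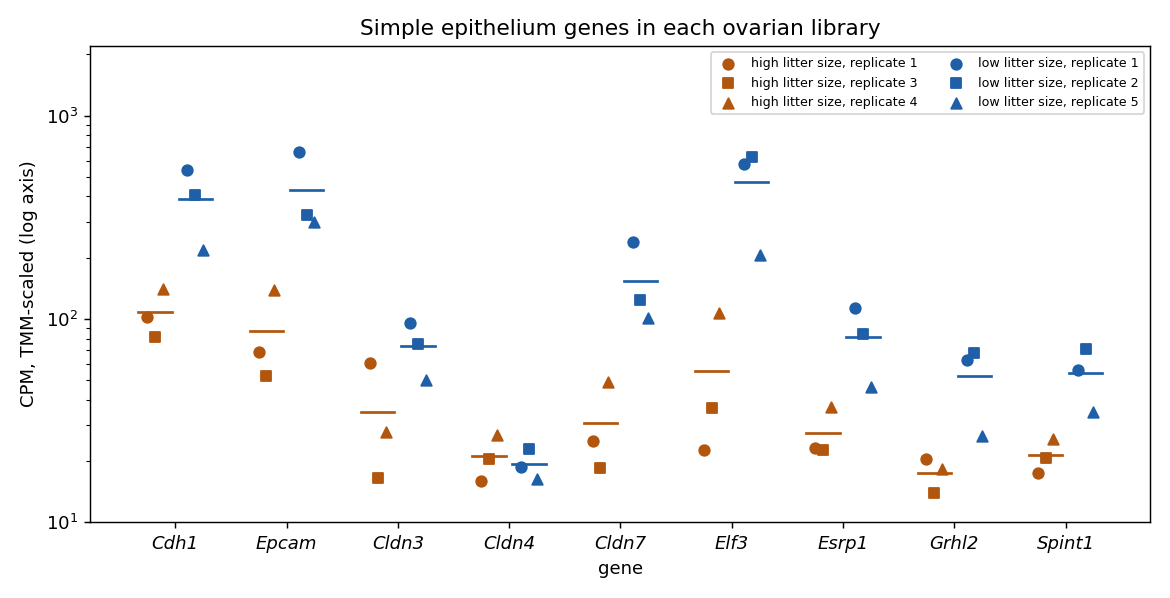
TMM-scaled CPM on a log axis for each of the 9 genes, with high litter size libraries in orange on the left and low litter size libraries in blue on the right. Points are libraries and short lines are group means (n = 3). The groups are separate for all genes except Cldn3 and Cldn4.

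Cdh1 encodes E-cadherin, the calcium-dependent adhesion receptor of epithelial cells (ENSMUSG00000000303, GRCm38, chromosome 8, 106603351 to 106670246, plus strand, protein-coding). Its level was 103, 81.8 and 141 CPM in high litter size replicates 1, 3 and 4, against 538, 408 and 218 CPM in low litter size replicates 1, 2 and 5. The groups did not overlap, and the lowest low litter size library, replicate 5, was 1.55 times the highest high litter size library, replicate 4. The log2 fold change was -1.84 (SE 0.40, edgeR quasi-likelihood adjusted p = 0.182), and DESeq2 gave an adjusted p of 0.00108. Epcam encodes the epithelial cell adhesion molecule, a single-pass membrane glycoprotein (ENSMUSG00000045394, chromosome 17, 87635979 to 87651129, plus strand). It had 69.1, 52.2 and 139 CPM in the high litter size libraries, against 664, 324 and 299 CPM in the low litter size libraries, in the same replicate order. Every low litter size library was at least 2.15 times every high litter size library. The mean was 86.8 ± 46.1 CPM with high and 429 ± 204 CPM with low litter size (SD, n = 3 each), and the log2 fold change was -2.31 (SE 0.50, adjusted p = 0.182, and 0.000627 with DESeq2).

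The 3 claudins of the list, the strand-forming proteins of tight junctions, had unlike values. Cldn3 (ENSMUSG00000070473, 134986214 to 134987472, plus strand) and Cldn4 (ENSMUSG00000047501, 134945119 to 134946934, minus strand) are single-exon genes on chromosome 5. They lie 39.3 kb apart and are transcribed away from each other, with no annotated gene wholly between them in the basic set of GENCODE M21. Cldn7 (ENSMUSG00000018569) lies on chromosome 11, from 69964779 to 69967885, plus strand. The windows from 250 bases before to 50 bases after the annotated starts of these genes and of Epcam are shown because Cldn3 and Cldn4 are neighbours with unlike values and Epcam and Cldn7 are distant genes with nearly the same pattern. They are RefSeq sequences (GRCm38.p6), 5′ to 3′ on the strand of the gene, from chr5:134985964-134986263 (plus), chr5:134946885-134947184 (minus), chr11:69964529-69964828 and chr11:69965171-69965470 (both plus) and chr17:87635729-87636028 (plus). Capitals mark CAGGTG or its reverse complement CACCTG, the E-box that Zeb and Snai repressors bind.
Cldn3: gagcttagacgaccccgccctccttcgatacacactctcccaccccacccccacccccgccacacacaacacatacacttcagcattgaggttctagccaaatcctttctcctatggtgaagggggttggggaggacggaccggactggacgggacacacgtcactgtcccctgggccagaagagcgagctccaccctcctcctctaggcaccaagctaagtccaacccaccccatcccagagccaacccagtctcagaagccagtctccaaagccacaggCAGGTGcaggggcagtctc
Cldn4: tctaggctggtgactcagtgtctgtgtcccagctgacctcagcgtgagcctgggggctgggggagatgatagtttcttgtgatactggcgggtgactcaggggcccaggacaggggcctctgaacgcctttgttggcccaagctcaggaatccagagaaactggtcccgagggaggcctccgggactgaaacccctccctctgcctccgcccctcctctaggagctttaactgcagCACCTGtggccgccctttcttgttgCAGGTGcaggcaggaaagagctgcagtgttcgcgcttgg
Cldn7 upstream start: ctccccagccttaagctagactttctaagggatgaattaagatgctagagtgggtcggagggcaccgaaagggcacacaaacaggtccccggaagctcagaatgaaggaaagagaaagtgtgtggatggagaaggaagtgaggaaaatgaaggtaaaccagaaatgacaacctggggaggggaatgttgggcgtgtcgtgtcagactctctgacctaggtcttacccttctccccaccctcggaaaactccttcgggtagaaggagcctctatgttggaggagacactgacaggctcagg
Cldn7 downstream start: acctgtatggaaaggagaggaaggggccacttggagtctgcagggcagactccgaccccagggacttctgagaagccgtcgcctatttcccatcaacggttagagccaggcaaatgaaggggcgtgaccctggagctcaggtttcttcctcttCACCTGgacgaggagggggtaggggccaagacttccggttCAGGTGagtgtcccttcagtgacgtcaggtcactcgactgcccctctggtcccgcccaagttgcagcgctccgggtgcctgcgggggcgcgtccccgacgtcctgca
Epcam: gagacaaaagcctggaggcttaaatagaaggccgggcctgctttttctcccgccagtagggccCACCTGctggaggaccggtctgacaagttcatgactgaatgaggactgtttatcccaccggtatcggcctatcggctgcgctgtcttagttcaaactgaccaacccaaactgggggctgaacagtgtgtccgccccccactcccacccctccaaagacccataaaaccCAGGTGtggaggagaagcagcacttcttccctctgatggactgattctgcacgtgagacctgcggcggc

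The E-box letters were found, on either strand, in 5 of the 7 windows that the table holds for the 9 genes and in 20.2% of all 32851 windows. The 5 were those of Cldn3, Cldn4, Elf3 and Epcam and the downstream start of Cldn7, and the windows of Spint1 and of the upstream Cldn7 start held none. Cldn4, whose groups overlapped, and Epcam, whose groups were separate, each had 2 matches. The grainyhead-like letters AACNNGTT were in 0 of the 7 windows and in 4.2% of all windows, and TATAAA was in 0 and in 13.6%. The ETS letters CGGAAG were in 3 windows, that of Spint1 and both of Cldn7, and in 16.9% of all windows. The matches to these motifs did not overlap each other, and a match is a description of the letters only. Windows were matched for 6 of the 9 genes, and the others are Cdh1, Esrp1 and Grhl2.

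Cldn7 had 25.2, 18.5 and 48.8 CPM in high litter size replicates 1, 3 and 4, against 239, 123 and 101 CPM in low litter size replicates 1, 2 and 5. Its groups were separate, as for Epcam, with the low litter size libraries at least 2.06 times the high ones (log2 fold change -2.32, SE 0.49, adjusted p = 0.173, and 0.000575 with DESeq2). Cldn3 had 60.7, 16.4 and 27.7 CPM in the high litter size libraries, against 95.4, 75.1 and 50.3 CPM in the low litter size libraries. High replicate 1 lay above low replicate 5, and the log2 fold change of -1.07 (SE 0.50, adjusted p = 0.39) was -1.74 without high replicate 1 and -0.73 without high replicate 3. Cldn4 had 16.0, 20.5 and 26.9 CPM in the high litter size libraries, against 18.7, 22.9 and 16.4 CPM in the low litter size libraries. The groups were interleaved, and the difference was smaller than the spread within either group (21.1 ± 5.48 CPM with high and 19.3 ± 3.28 CPM with low litter size, SD, n = 3 each, log2 fold change 0.13, SE 0.27, adjusted p = 0.857). Without high replicate 4 the Cldn4 value was -0.11. Cldn4 was thus the one gene of the list whose sign depended on a single library.

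The 3 regulators of epithelial identity all had lower values in the high litter size libraries. Elf3, an ETS-family transcription factor of epithelial cells (ENSMUSG00000003051, chromosome 1, 135253575 to 135258568, minus strand), had 22.6, 36.6 and 107 CPM in high litter size replicates 1, 3 and 4, against 577, 625 and 207 CPM in low litter size replicates 1, 2 and 5. Its mean was 55.5 ± 45.3 CPM with high litter size and 470 ± 229 CPM with low litter size (SD, n = 3 each), giving -3.08 on the log2 scale (SE 0.72, adjusted p = 0.19, and 0.000434 with DESeq2). Elf3 had the lowest log2 fold change of the 9, at rank 128 from the lowest of all 16455 tested genes. It also had the widest spread within the high litter size group, where replicate 4 was 4.74 times replicate 1, and its log2 fold change was -4.02 without high replicate 4. Its groups were nevertheless separate.

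Esrp1, which directs epithelial splice choices (ENSMUSG00000040728, chromosome 4, 11331933 to 11386783, minus strand), had 23.1, 22.5 and 36.9 CPM in the high litter size libraries, against 113, 84.3 and 46.0 CPM in the low litter size libraries. All low litter size libraries were above all high ones, by the narrow margin of 1.25 times between low replicate 5 and high replicate 4 (log2 fold change -1.56, SE 0.38, adjusted p = 0.198, and 0.0102 with DESeq2). Grhl2, a grainyhead-like factor that activates junction genes (ENSMUSG00000022286, chromosome 15, 37233036 to 37363569, plus strand), had 20.5, 13.9 and 18.2 CPM, against 62.7, 68.3 and 26.7 CPM in the low litter size libraries. Its high litter size libraries were close together, within 1.48 times of each other, and the low ones spanned 2.56 times (log2 fold change -1.58, SE 0.38, adjusted p = 0.195, and 0.00937 with DESeq2). Spint1, a membrane-anchored inhibitor of the serine protease matriptase (ENSMUSG00000027315, chromosome 2, 119237362 to 119249527, plus strand), had 17.5, 20.8 and 25.7 CPM, against 56.1, 71.2 and 34.7 CPM in the low litter size libraries. Its groups were separate, with the log2 fold change nearest to 0 of the 7 genes with separate groups (-1.34, SE 0.31, adjusted p = 0.19, and 0.00892 with DESeq2). Annotated antisense genes share 40 exonic bases with Cldn3, 162 with Elf3 and 124 with Grhl2, and the sources used here do not say whether counting used strand.

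**Figure D2:**
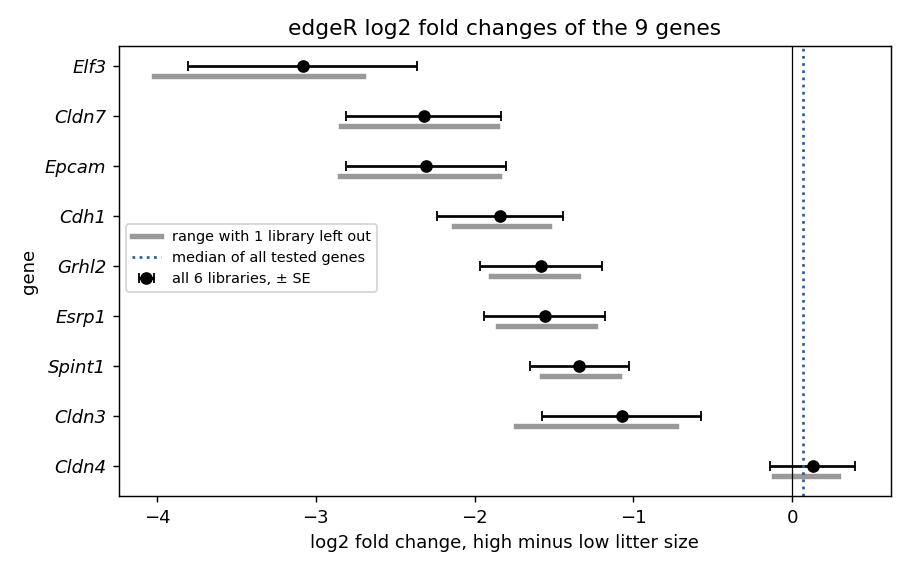
edgeR log2 fold change, high minus low litter size, for each of the 9 genes (points, with SE bars), with the range when 1 library is left out in grey and the median of all tested genes as a dotted line. The values run from -3.08 for Elf3 to 0.13 for Cldn4, and 8 of 9 stay below 0 whichever library is left out.

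Low replicate 5 was the lowest low litter size library for all 9 genes, low replicate 1 the highest for 5 (Cdh1, Epcam, Cldn3, Cldn7 and Esrp1) and low replicate 2 for 4. In the high litter size group, replicate 4 was the highest for 7 genes and replicate 3 the lowest for 6. The mean over the 9 genes of log2 CPM, centred on each gene's own mean, was -0.95, -1.21 and -0.36 in high replicates 1, 3 and 4, against 1.27, 1.02 and 0.22 in low replicates 1, 2 and 5. Low replicate 5 and high replicate 4 were therefore the nearest libraries of opposite groups. These 2 libraries also had the highest summed granulosa and luteal level, whose part in the result was not tested. Low replicate 2 and high replicates 1 and 3, which had the lowest, were on opposite sides of 0 in the epithelial profile. In high replicate 4 alone against low replicates 1 and 5, a set chosen after the data were seen, the log2 fold changes ran from -1.90 for Elf3 to 0.59 for Cldn4, with Spint1 at -0.85. The sign of the 7 genes with separate groups could not change in such a subset, so it adds no support. These values describe 1 high litter size library, assumed to vary like the low litter size ones, and 0 of 9 passed by edgeR.

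**Figure D3:**
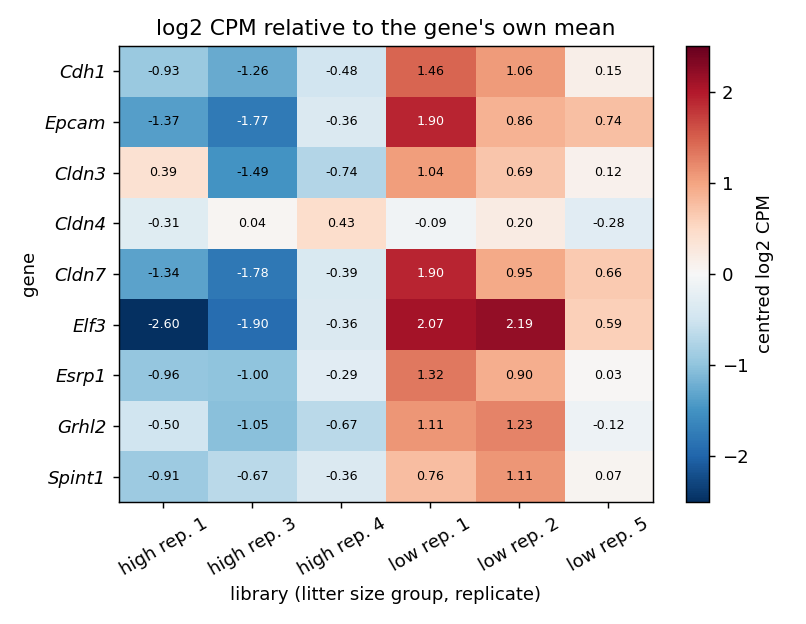
log2 CPM of each gene relative to its own mean over the 6 libraries, with high litter size libraries in the left 3 columns and low litter size libraries in the right 3. Red is above and blue below the gene's mean. The row of Cldn4 stays between -0.31 and 0.43, while that of Elf3 runs from -2.60 to 2.19.

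Among the 36 pairs of the 9 genes, Epcam and Cldn7 were the most alike. The root mean square difference between their centred log2 CPM profiles over the 6 libraries was 0.053. Each was the nearest of 14668 genes to the other, a rank computed after the pair was seen. The proteins of these genes are known to bind each other in epithelial membranes. The next closest pair was Cdh1 and Esrp1, at 0.17, each of which was at rank 10 for the other. Cldn4 was far from every other gene of the list, with Spint1 the nearest at 0.73, at rank 10811 of 14668. Elf3 and Cldn4 were the least alike, at 1.78. These distances are descriptions over 6 libraries, in which genes share each library's depth and tissue make-up, and both differed between libraries.

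Ratios within a library do not depend on its scaling, and the level per kilobase of transcript, relative to that of Cdh1, differed between the genes. For Cldn4 this ratio was 0.328, 0.526 and 0.402 in high replicates 1, 3 and 4, against 0.0729, 0.118 and 0.158 in low replicates 1, 2 and 5, so that the groups were separate. For Elf3 it was 0.420, 0.854 and 1.46 in the high litter size libraries, against 2.05, 2.93 and 1.81 in the low litter size libraries, separate in the other direction. The Cldn4 ratio differed while the level of Cldn4 itself overlapped between the groups, and that of Cdh1, its denominator, was lower in the high litter size libraries. For Esrp1 the ratio was nearly constant in the low litter size libraries, at 0.215 ± 0.00239, and 0.261 ± 0.0272 in the high litter size libraries (SD, n = 3 each), where each library was higher. The other 5 ratios overlapped between groups. The 3 separate ratios had an exact two-sided permutation p of 0.1, the smallest that 3 against 3 samples allow, and 0.229 after Benjamini-Hochberg adjustment over the 8 ratios, so none passed.

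**Figure D4:**
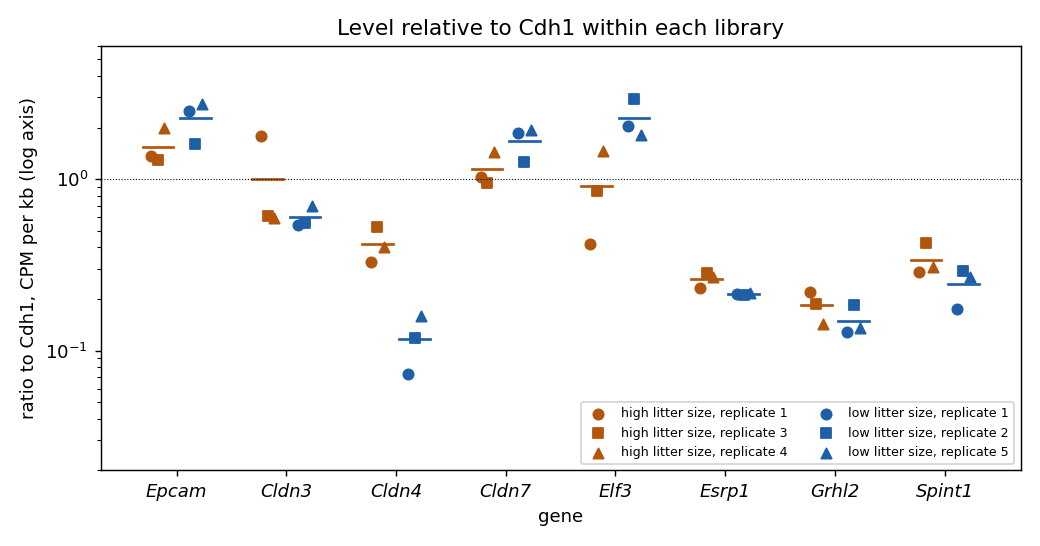
Level of each gene per kilobase divided by that of Cdh1 in the same library, on a log axis, with high litter size libraries in orange on the left and low litter size libraries in blue on the right. Short lines are group means (n = 3). Cldn4 lies higher and Elf3 lower in the high litter size libraries, without overlap.

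Per kilobase of the median coding transcript, the order of levels also differed between groups. In the high litter size group Epcam was first with 45.9 ± 24.4 CPM per kb, before Cldn7 at 33.8 ± 17.4, Cdh1 at 28.4 ± 7.81, Elf3 at 27.8 ± 22.7 and Cldn3 at 27.7 ± 18.3 CPM per kb (SD, n = 3). Below them were Cldn4 at 11.6 ± 3.02, Spint1 at 9.38 ± 1.82, Esrp1 at 7.39 ± 2.19 and Grhl2 at 5.06 ± 0.968 CPM per kb. In the low litter size group Elf3 had 235 ± 115, Epcam 227 ± 108 and Cldn7 169 ± 81.2 CPM per kb, followed by Cdh1 at 102 ± 42.2 and Cldn3 at 58.4 ± 17.9 CPM per kb. Below these were Spint1 at 23.8 ± 8.08 and Esrp1 at 21.8 ± 9.02 CPM per kb, and Grhl2 at 15.1 ± 6.51 and Cldn4 at 10.6 ± 1.81 CPM per kb came last. Neighbours in either order overlapped within 1 SD of their means, except Cldn3 and Spint1 in the low litter size group. Cldn4 was sixth of the 9 in the high and last in the low litter size group.

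Other genes of the same junctions and pathways were read from lists chosen with earlier results of these data known, and 0 members of any of the 13 lists passed by edgeR. Among 17 tight junction and polarity genes, 16 had negative log2 fold changes and 13 had separate groups with the high litter size libraries lower, with a median of -0.91. Of all tested genes, 44.7% were negative and 10.8% were separate in that direction. Marveld2, the tricellulin of three-cell contacts, had 8.35 ± 1.38 CPM with high litter size, against 26.5 ± 7.87 CPM with low litter size (SD, n = 3 each, log2 fold change -1.66, adjusted p = 0.162), and its relative Marveld3 had -2.14. Among 10 genes of the cadherin complex, 8 were negative, and the median was -0.37. Groups were separate for 2 with the high litter size libraries lower, against 10.8% of all tested genes, and for 1 with them higher. Plekha7, which links E-cadherin to microtubules, had -1.04 and the adhesion molecule Nectin4 -1.65. Of 10 membrane proteases, substrates and receptors around Spint1, 9 were negative, with a median of -1.49. The protease-activated receptor F2rl1 had -1.81 and the serine protease hepsin (Hpn) -1.83. Of 13 tested close relatives of the 9 genes, 7 were negative and 6 positive (median -0.70), where 44.7% of all tested genes were negative. Groups were separate for 5 with the high litter size libraries lower and for 1, Cldn1 at 1.94, with them higher. The second epithelial splicing regulator Esrp2 had -1.82 and the claudin Cldn10 -1.26.

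Markers of cell types that could carry these transcripts differed in direction. All 20 simple epithelium genes had negative values (median -1.89), where 44.7% of all tested genes did, and 15 had separate groups, against 10.8%. The summed level of these 20 genes was 698 to 1920 CPM with high and 3028 to 6761 CPM in the low litter size libraries. Of these, Tmem30b, a flippase subunit, had -1.87 and Ovol2, a transcription factor that maintains epithelium, -3.34 (adjusted p = 0.14 for both), with 1.72 ± 0.512 CPM of Ovol2 at high and 17.5 ± 7.72 CPM at low litter size (SD, n = 3 each). Of 13 stratified epithelium genes, 12 were positive, and Sfn, also named after its value was seen, was negative at -2.13. The sum of all 13 was 119 to 852 CPM with high and 44.0 to 132 CPM in the low litter size libraries, which overlap. The 852 CPM was in high replicate 4. Trp63, the master factor of stratified epithelium, had 3.76, and the atypical cadherin Fat2 5.72 (6.68 without low replicate 1). Of 10 genes of mesothelium and ovarian surface epithelium, 9 were positive (146 to 334 CPM with high and 223 to 334 CPM in the low litter size libraries in sum), with Upk3b at 1.21 and Lrrn4 at 1.40. Aldh1a2, the 1 negative gene at -1.32, made up 42.6% of that sum as averaged over the 6 libraries. This gene was left out after the values were seen. The sum was then 126 to 261 CPM with high and 82.5 to 129 CPM with low litter size, still overlapping. Of 11 tested oviduct and uterine epithelium genes, 6 were negative and 5 positive, with a sum of 845 to 5405 CPM with high and 4062 to 14681 CPM in the low litter size libraries. Lactoferrin (Ltf), a secreted protein of uterine epithelium, made up 85.0% of that sum as averaged over the 6 libraries, with 89.1, 813 and 3684 CPM in high replicates 1, 3 and 4, against 14146, 4676 and 3186 CPM in low replicates 1, 2 and 5. Without Ltf, left out after the values were seen, the sum was 360 to 1720 CPM with high and 461 to 876 CPM in the low litter size libraries, which overlap. Pax2, a Mullerian duct factor, had -1.84 and Emx2 -0.99. The oviduct glycoprotein Ovgp1 had 1.83 (SE 1.99) and Foxj1, the factor of ciliated cells, 1.91 (SE 1.73). Both overlapped between the groups and were highest in high replicate 4 (these 2 also named after their values were seen). Foxj1 had 0.716, 0.874 and 60.2 CPM in high replicates 1, 3 and 4. In low replicates 1, 2 and 5 it had 0.982, 3.20 and 12.2 CPM. No defining marker of these 4 lists except Lhx1 was left out by the filter on low counts, and the part of these cell types in the result was not tested.

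Of 10 mesenchymal factors, several of which oppose the epithelial state, 7 were positive and 3 negative (median 0.35), and 0 had separate groups. Of all tested genes, 44.7% were negative and 10.8% were separate with the high litter size libraries lower. Zeb2, a repressor of Cdh1, had 120, 231 and 179 CPM in high replicates 1, 3 and 4, against 74.9, 110 and 133 CPM in low replicates 1, 2 and 5, with overlap (0.73 on the log2 scale, adjusted p = 0.372). Snai1, another such repressor, had 1.20 (adjusted p = 0.436). Adipocyte genes were positive in 8 of 8, where 44.7% of all tested genes were negative. Their sums were 2699 to 28845 CPM with high and 354 to 3281 CPM in the low litter size libraries. Pparg had 2.27 and Cidea 4.08, but 1.44 and 1.91 without high replicate 3, and Pparg had 2.94 without low replicate 2. The summed adipocyte level was highest in high replicate 3, the library with the lowest mean epithelial profile. High replicate 1 and low replicate 2 had sums of 3338 and 3281 CPM, with mean epithelial profiles of -0.95 and 1.02. Smooth muscle genes were negative in 7 of 7, against 44.7% of all tested genes. Groups were separate for 1 with the high litter size libraries lower, against 10.8%. Smooth muscle sums were 3132 to 10112 CPM with high and 7852 to 15429 CPM in the low litter size libraries, with Actg2 at -1.90 and Des at -1.28. Granulosa and luteal genes were negative in 5 of 10 and positive in the other 5, with a median of 0.07. Inhba at -1.87 and Foxl2 at -0.58, named for their smallest p, were both among the negative ones. Oocyte genes were negative in 4 of 8 (median -0.06), with Ddx4 at -0.83 and Oosp1 at 0.47. Without high replicate 4, Inhba had -3.89, Foxl2 -1.22, Ddx4 -1.63 and Oosp1 -1.72. Ddx4 had 0.0624 CPM in high replicate 3 and Oosp1 0.0533 CPM in low replicate 2, each 1 count, so counting error also limits these 2. The part of these tissues in the result was not tested.

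**Figure D5:**
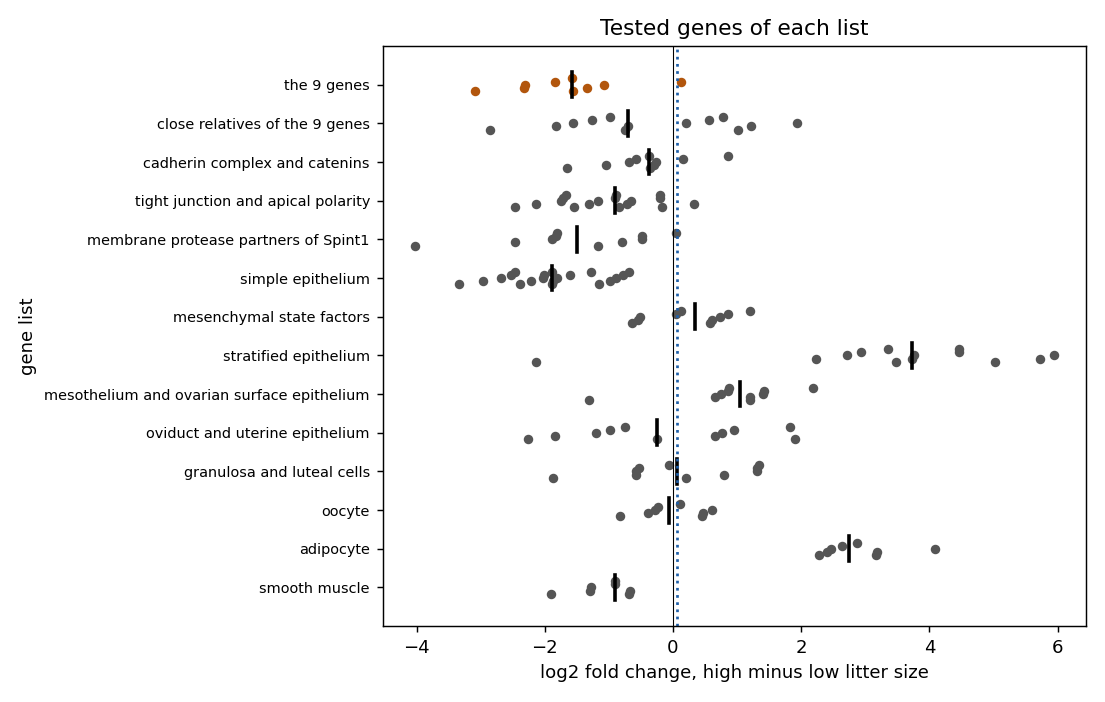
edgeR log2 fold change, high minus low litter size, of each tested gene of the 9-gene list (orange) and the 13 other lists (grey). Vertical bars are list medians and the dotted line is the median of all tested genes. The 9 genes and the simple epithelium list lie mostly below 0, and the stratified epithelium and adipocyte lists mostly above.

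The 10 genes whose centred profiles were nearest to the mean of the 9 were chosen for that pattern among 14660 candidates with a mean of at least 1 CPM. They were Spint2, Krtcap3, Eya2, Hook2, Trim2, Chac2, Pkp3, Cgn, Marveld2 and Ap1m2, at root mean square differences of 0.118 to 0.164 over 6 libraries. Spint2, the nearest, encodes the other membrane-anchored inhibitor of the Spint1 type, averaging 86.7 CPM with high and 257 CPM with low litter size. Pkp3 is a desmosomal plakophilin, Cgn the tight junction protein cingulin and Ap1m2 an epithelial clathrin adaptor subunit. Their log2 fold changes ran from -1.91 for Eya2, a transcriptional coactivator, to -1.54 for Hook2, a microtubule adaptor, and 0 of the 10 passed by edgeR (adjusted p from 0.161 to 0.191).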

How the data were processed

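The deposited values, in whole numbers, were read as estimated counts from kallisto, rounded by the authors, although no source says so. Trim Galore, kallisto, DESeq2 and GRCm38 stand in the submitters' processing notes with no version. Reads that fit several similar transcripts are divided among them by kallisto. Symbols came from a list of gene names (35869 of 36727 genes matched). Coordinates and lengths are from the GENCODE M21 basic annotation on GRCm38, and the sources used here do not name the release used in counting.

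filterByExpr (count minimum 10, total minimum 15) left 16455 genes, among them all 9 studied. After TMM scaling, edgeR 4.0.16 in R 4.3.3 compared high minus low litter size by quasi-likelihood F test on all 6 samples without covariates, using Benjamini-Hochberg adjustment and a threshold of 0.05. Depth, as total counts, differed 1.41-fold between libraries. Centred profiles used log2 CPM with a prior count of 2. DESeq2 1.42.0 and limma 3.58.1 (voom) were alternatives, and the closing section gives the effect of these and other settings. Summaries were made in Python 3.11.15 (pandas 2.3.3) and plots in matplotlib 3.10.9.

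The tests were run on simulated data beforehand, in which genes varied independently of each other. Differences in tissue make-up between libraries were not simulated, so the counts of false calls hold for that setting only. With no gene changed, the quasi-likelihood test made 0 false calls among 16455 genes and DESeq2 made 40. Of 200 genes changed 2-fold, the quasi-likelihood test recovered 0% and DESeq2 7%. At 4-fold they recovered 28% and 71%, with 3 and 70 false calls. A gene that did not pass by edgeR may thus still differ, and some DESeq2 calls may be false. The 9 genes and the 13 lists were chosen with earlier results of these data known. All 9 are named, with the 2 members of smallest p of each list and the 10 genes of nearest pattern, predicted models left out. Exceptions chosen after their values were seen are Aldh1a2, Ltf, Ovgp1, Foxj1, Sfn and the claudins of the closing section.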

Additional observations from a re-analysis of the deposited data

How the results depend on the processing

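The count of all genes called was 1 with all libraries. DESeq2 gave 1017, the edgeR likelihood ratio test 631, limma voom 3 and library size alone 2. The count was 1 with RLE or upper-quartile scaling, with either filter, with robust dispersion and at a threshold of 0.1. With 1 library left out the count was 0 to 1, and in high replicate 4 against low replicates 1 and 5, added after the data were seen, 0. Of the 9 studied genes 0 were called, and 7 by DESeq2 and 7 by the likelihood ratio test. With 1 library left out 0 were called each time. The number with a negative log2 fold change was 8 under every setting, except 9 without high replicate 4 (8 to 9 with 1 library left out). Cldn4 ran from -0.11 there to 0.29 without high replicate 1, and the cause was not tested. Of the other named genes, Oosp1 reversed, from 0.47 to -1.72 without high replicate 4 and -0.07 without low replicate 2 (1.45 without low replicate 5), the cause of which was not tested. Over the 9 genes and all settings, 129 of 144 log2 fold changes kept their direction and side of the threshold and 14 newly passed, each with DESeq2 or the likelihood ratio test. No scaling moved the median of all genes by over 0.1 on the log2 scale. No paired analysis was possible because just 1 replicate number occurs in both groups. With 3 libraries per group, spread between libraries, not counting depth, limits the values of the 9 genes, whose smallest count was 223. The values of Oosp1 were also limited by counting, at 0.0533 CPM or 1 count in low replicate 2.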

Other observations

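The whole claudin family was looked at after the values of Cldn3, Cldn4 and Cldn7 were seen. The table holds 25 claudin genes, of which 12 passed the filter on low counts, 6 with negative and 6 with positive log2 fold changes, high minus low, and 0 passed by edgeR. At an unadjusted p under 0.05, Cldn7, Cldn10, Cldn2 and Cldn12 were lower and Cldn1 and Cldn5 higher. Of all tested genes, 7.82% were lower and 6.56% higher at that threshold. Cldn2, a claudin that forms cation-permeable pores, had 2.10, 11.6 and 38.3 CPM in high litter size replicates 1, 3 and 4, against 299, 82.9 and 61.5 CPM in the low litter size libraries (log2 fold change -3.09, SE 1.10, adjusted p = 0.304). Cldn1, a barrier claudin of stratified epithelium, was separate in the other direction, with 16.4, 9.68 and 25.2 CPM with high and 3.35, 3.47 and 6.55 CPM with low litter size (log2 fold change 1.94, SE 0.47, adjusted p = 0.195). Cldn5, the claudin of endothelium, had 65.2, 64.9 and 32.5 CPM with high and 24.8, 39.5 and 16.6 CPM in the low litter size libraries.

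Of the summed claudin level per kilobase, Cldn7 made up 13.8, 13.6 and 28.8% in the high litter size libraries, against 47.8, 36.4 and 38.3% in the low litter size libraries, in the same replicate order. Cldn4 made up 4.41, 7.56 and 7.99% in the high and 1.88, 3.40 and 3.14% in the low litter size libraries. The summed claudin level itself was 200, 149 and 185 CPM per kb in the high litter size libraries, against 548, 371 and 288 CPM per kb in the low litter size libraries. This total was lower in the high litter size libraries, without overlap, while the level of Cldn4 itself overlapped between the groups. The shares were not tested.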
